A study of Homo sapiens with 8 samples.

Results

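The open chromatin that did not stay on an anion exchanger (the flow-through, FT) was compared with the open chromatin recovered in the 7 salt washes that followed. The members are genomic regions. ATAC-seq peaks of the 8 libraries that shared at least 1 bp were merged, and each merged region was placed by the libraries that called it. Of 36845 merged regions, 22905 fell into the 4 classes described here. These are 4360 regions called in FT and in no wash, 14112 called in FT and in 1 to 6 washes, 4241 called in all 8 libraries, and 192 called in 5 or more washes but not in FT. The other 13940 regions were called in 1 to 4 washes and not in FT.

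All 8 libraries came from 293T, a human embryonic kidney cell line that expresses the SV40 large T antigen. In every fraction the cells had been crosslinked, permeabilised and cut with transposons before they met the exchanger, Q Sepharose. FT is what was left in solution, and the washes, named G20, G100, G200, G300, G500, G700 and G1000, used 20, 100, 200, 300, 500, 700 and 1000 mM NaCl in that order. No genotype or drug differed between fractions, each fraction was 1 library, and an unfractionated library was not analysed here. No difference was therefore checked by a replicate, and the tests speak of the 8 libraries, not of the salt conditions. The peaks in the FT list carry the name GL and those in the G200 list the name G50_200, so what these lists hold beyond their labels was not settled. Values without G200 are given beside the results that it moves.

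ATAC-seq reads where a transposase could insert sequencing adapters, which happens mostly in DNA that is free of nucleosomes, such as active promoters, enhancers and binding sites of insulator proteins. Q Sepharose carries fixed positive charges, so it holds DNA, RNA and acidic proteins. Salt competes for these charges, and weakly held complexes leave at low salt before strongly held ones. Material in a flow-through was not held at the loading salt.

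How deeply a library was read sets how many weak regions a peak caller can list. FT had the longest list, with 22807 peaks, and the washes had between 8102 (G700) and 19717 (G300). The deposited lists give no read totals. The number of reads piled up at each summit was therefore recovered from the fold enrichment and p-value of each peak. This assumes that MACS2 was run with its usual pseudocount and Poisson tail in all 8 lists, and the background values below can be compared only if the settings were alike. The background of each list, its lowest expected pileup, was 2.36 reads per kb in FT, 1.73 in G300, 1.62 in G20, 1.12 in G100, 1.03 in G1000, 0.972 in G500, 0.917 in G700 and 0.817 in G200. FT was thus the highest of the 8 in both list length and background. This background was not told apart from the depth of a library, so a high value is no measure of noise.

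FT covered nearly all of the regions that most washes called. Of 8825 regions called in 5 or more washes, 8633 were also called in FT and 192 (2.18%) were not. FT lacked 78.6% of the regions called in just 1 wash, 47.5% of those in 2, 25.8% of those in 3, 12.5% of those in 4, 6.26% of those in 5, 1.83% of those in 6 and 0.235% (10 of 4251) of those in 7. The share missed by FT was thus smaller at each further wash. As shares of all merged regions, the class of FT and no wash made up 11.8%, FT and 1 to 6 washes 38.3%, all 8 libraries 11.5% and 5 or more washes without FT 0.521%. With G200 left out, FT and no wash held 4890 regions, FT and some of the washes 13394, and FT and all remaining washes 4439. Since the rule for the classes uses these calls, the counts are a description and carry no test.

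**Figure D1:**
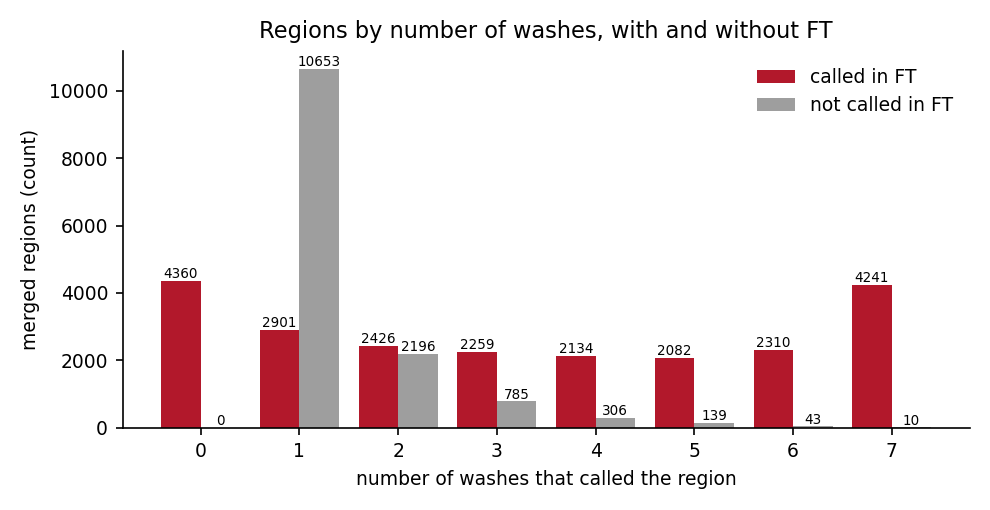
Number of merged regions (y axis) by the number of washes that called them (x axis, 0 to 7), with bars for regions called in FT and not called in FT. Among regions of 1 wash, 10653 lacked FT and 2901 had it. Among regions of 7 washes, 10 lacked FT and 4241 had it.

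The list-by-list counts put FT beside each wash treated in the same way. A share of 19.2% of FT regions was in no other list, against 15.8% for G300, 14.7% for G200, 13.9% for G20, 7.77% for G100, 5.56% for G1000, 5.46% for G500 and 4.33% for G700. FT was the highest of the 8 here. Among regions called in 5 or more of the other 7 lists, FT missed 2.18%, G20 3.78%, G300 4.13%, G200 13.6%, G100 15.6%, G500 27.4%, G1000 27.6% and G700 39.8%, so FT missed the fewest.

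Both orders were near that of list length but did not follow it throughout. In the share held alone, G200 stood above the longer G20, and G1000 above the longer G500. In the share missed, G20 was lower than the longer G300. When each list was cut to its 8102 strongest peaks, the length of the G700 list, FT alone held 456 regions, or 5.63% of its regions. The washes then held alone 4.85% (G20), 5.08% (G300), 7.40% (G100), 9.45% (G1000), 9.57% (G200), 9.99% (G500) and 13.4% (G700). FT then sat between G300 and G100. Of regions in 5 or more of the other lists, FT missed 12.1% at this length, more than G300 (10.2%) and G20 (10.6%) and less than the other 5 washes (13.4% to 20.3%). The excess of FT-only regions over every wash was thus not present at equal list length. The cut did not give equal thresholds. The −log10 q (the authors' adjusted peak strength) of the weakest peak kept was 7.89 in FT, 7.18 in G20 and 6.95 in G300. It was 5.36 in G200, 4.45 in G100, 3.23 in both G500 and G1000 and 1.32 in G700. FT-only regions of the full lists had a median of 3.28, so the cut itself removed most of them. What list length alone did to the excess was not tested.

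The regions of FT and no wash were weak FT peaks. Their median −log10 q, the authors' strength of a peak after adjustment over the list, was 3.28, against 5.83 for FT and 1 to 6 washes and 15 for all 8 libraries. Median fold enrichment at the summit was 4.34, 5.30 and 7.47 in the same order, and median summit reads were 8, 14 and 28. Peak width followed, with medians of 368, 525 and 800.5 bp. The share of FT regions found in no wash was 63.5% at a −log10 q of 1 to 2, 52% at 2 to 3, 30.9% at 3 to 5, 8.71% at 5 to 10, 0.426% at 10 to 20 and 0.0795% at 20 to 50. Among 92 regions at 50 or more it was 1.09%, which is 1 region. The share called in all 7 washes went the other way, from 0% at 1 to 2 to 10.1% at 5 to 10 and 89.3% at 20 to 50. The stronger an FT region was, the more washes called it.

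**Figure D2:**
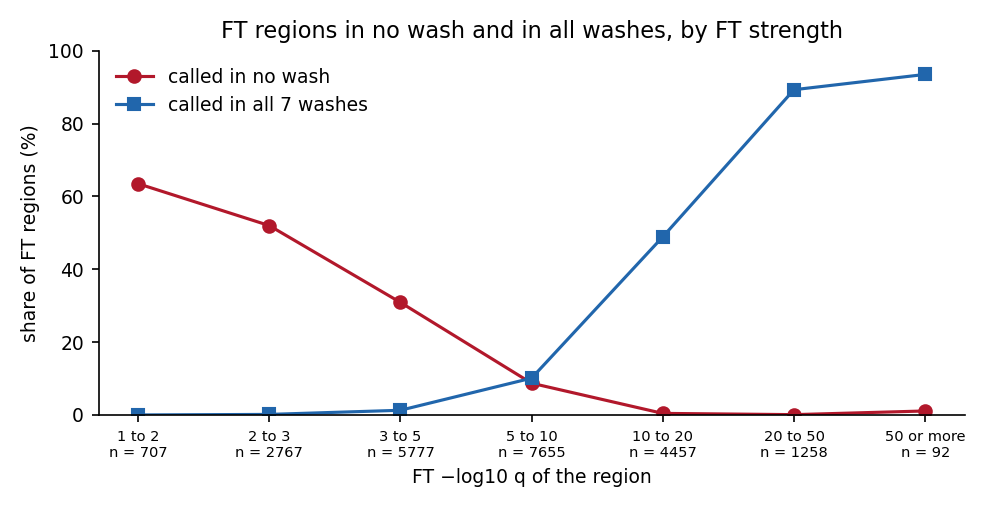
Share of FT regions (y axis, %) that were called in no wash and in all 7 washes, by the −log10 q of the FT region (x axis, with the number of regions per bin). The share in no wash is 63.5% in the weakest bin and 0.0795% at 20 to 50, and the share in all washes is 0% and 89.3% in the same bins.

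Whether an FT-only region would have been called in a wash depends on the depth of that wash. FT reads of the 4335 FT-only regions with a recovered read number were scaled to each wash by the reads of regions called everywhere. The fewest reads of an FT peak, 5, already scale above the fewest of any called peak in G20 (4), G200 (3) and G300 (4). Every one of the 4335 thus had to reach that mark in these 3 washes, whatever its strength. It was reached by 81.5% in G100, 64.4% in G500, 64.4% in G1000 and 48.4% in G700. In all 7 washes at once, 2100 reached it. By the median reads of a called peak, a stricter mark, 561 reached it in G20, 561 in G300, 413 in G200 and 39 in G700. These FT reads come from the call that chose the regions, so they are given as a description.

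Only 21 regions of FT and no wash had a −log10 q of 10 or more in FT, and 16 of them were ordinary. Ordinary here means on a placed chromosome, over 1 Mb from its longest peak-free stretch, and over 20 kb from its first base and its last called peak. Other assembly gaps were not considered. The strongest was on an unplaced scaffold, chr9_gl000199_random:98701-99077 (hg19), with 87 reads and a −log10 q of 58.2. Next came chr19:27733081-27733364 beside the centromere gap of chromosome 19, with 224 reads but a fold of 2.57. It lay 298 bp from a region called in all 8 libraries. A further 3 scaffold regions were chrUn_gl000225:85563-86004 with 27 reads, chrUn_gl000226:12442-12731 with 91 reads and chrUn_gl000214:118378-118679 with 26 reads. Reads in such repeat-rich sequence depend on how reads with several matches were placed, which the sources used here do not give.

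Among ordinary sites the strongest FT-only region was chr17:70588668-70589085, with 24 FT reads, a fold of 8.90 and a −log10 q of 15.7. Scaled to the washes, these reads would be 22.5 in G20, 23.1 in G300 and 11.2 in G700, and none of the 7 called it. It was followed by chr17:40950450-40950918 (19 reads, −log10 q 12.7) and chr1:45671461-45672456 (21 reads, −log10 q 12.2). At chr19:57683660-57684014 there were 15 reads, at chr16:75505599-75505973 14 reads and at chr22:50945749-50946197 20 reads, with −log10 q of 11, 10.8 and 10.7. These last 3 were added after their values were seen.

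Few FT-only regions lay close to a site that all libraries called. A share of 0.986% (43 regions) lay within 1 kb of a region of all 8 libraries, against 0.595% (84) of regions of FT and 1 to 6 washes and 0.574% (80) of regions of 1 to 4 washes without FT. Their median distance to a region of all 8 libraries was 190 kb, against 160 kb and 208 kb. Ordinary sites made up 98.3% of FT-only regions, 98.3% of those in FT and 1 to 6 washes and 97.1% of those in all 8, against 98.3% of all merged regions.

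The classes differed in their shares of some chromosomes. Chromosome 19 held 2.87% of FT-only regions (95% exact binomial interval 2.39 to 3.41), 4.58% of FT and 1 to 6 washes (4.24 to 4.94), 6.01% of all 8 (5.32 to 6.77) and 3.71% of all merged regions. The share was thus larger where more libraries called the region. Chromosome 13 showed the reverse, with 3.51% (2.98 to 4.10), 2.71% (2.45 to 3.00) and 2.15% (1.73 to 2.63), against 3.13% of all. Other gene-dense chromosomes did not follow chromosome 19. In the same order of classes, chromosome 17 held 4.11%, 4.47% and 3.16%, and chromosome 22 held 1.93%, 1.91% and 1.51%. Chromosomes 13 and 19 were picked after their values were seen, and the intervals cover counting error only.

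In the class of FT and 1 to 6 washes, the washes that most often shared a region with FT were those with the longest lists. G20 called 72.5% of the 14112 regions, G300 71.4%, G200 55%, G100 47.8%, G500 33.9%, G1000 33.4% and G700 21.4%. Where FT had 1 wash beside it, that wash was G20 in 886 of 2901 regions, G300 in 848, G200 in 510, G100 in 295, G500 in 152, G1000 in 137 and G700 in 73. Where 6 washes were present, the absent wash was G700 in 1011 of 2310 regions, G500 in 460, G1000 in 448, G200 in 200, G100 in 145, G20 in 23 and G300 in 23. In the shares of the whole class, the order of the washes was that of their list lengths, except that G20 stood above G300.

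Pairwise overlap is given as a share of each list. FT shared 14468 regions with G20 (63.7% of FT regions, 74.8% of G20 regions), 14316 with G300 (63% and 72.9%), 12009 with G200 (52.9% and 75.4%) and 10991 with G100 (48.4% and 83.4%). With the 3 washes of highest salt it shared 9030 in G500 (39.8% and 87.3%), 8950 in G1000 (39.4% and 87.7%) and 7259 in G700 (32% and 90.1%). The shorter the wash list, the larger was the part of it that FT held.

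The 6 strongest FT regions of this class all lacked G200, and all lay beside centromere gaps or on a scaffold. Such sequence is rich in satellite repeats, tandem arrays that pile up reads. Of the 6, chr10:42395856-42396276, chr11:51588300-51589125 and chr10:42534464-42534818 lacked G200 alone, so that without this list they would count as called everywhere. At chr10:42395856-42396276, with an FT −log10 q of 102, FT had 258 summit reads. The low-salt lists had 185 (G20) and 243 (G100), G300 had 203, and the 3 of highest salt had 101 (G500), 132 (G700) and 153 (G1000). Scaled to FT, G100 (374), G700 (282) and G1000 (272) lay above FT, and G300 (211), G20 (197) and G500 (183) below it. The others were chr11:51588300-51589125 (239 FT reads), chr11:51586729-51587043 (233), chr10:42534464-42534818 (139), and chrUn_gl000225:25511-26006 and chrUn_gl000225:99099-99519 (66 and 55).

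Ordinary regions of this class were led by chr9:66834791-66835190, with 43 FT reads, and chr16:30968466-30969660. At the chromosome 16 region FT had 56 reads, and the washes scaled to FT had 30.8 (G100), 25.6 (G700), 23.4 (G200), 22.4 (G20), 19.6 (G1000) and 17.7 (G300), with no call and so no read number in G500. FT was above the 6 washes that called it. At chr9:35072227-35073019 FT had 47 reads, and the scaled washes had 53.3 (G20), 48.05 (G1000), 34.3 (G300), 30.2 (G200), 27.8 (G700) and 21.6 (G100), so FT lay below G20 and G1000. These regions were named after their values were seen and have no test.

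The 192 regions that FT lacked were weak wash peaks. Their wash peaks had a median −log10 q of 4.67, 9 summit reads and a width of 410 bp. G20 called 95.8% of them, G300 93.8%, G200 84.9%, G100 78.1%, G500 66.7%, G1000 66.7% and G700 46.9%. Regions just inside the class limit (5 washes, 139 regions) had a median wash −log10 q of 4.43, and regions just outside it (4 washes, 306 regions) one of 4.29, both with 9 reads. Scaled to FT, their reads had a median of 13.7 and ranged from 7.86 to 35.7. All 192 reached the fewest reads of a called FT peak (5), and 89 reached the FT median of 14. These reads come only from the wash calls that chose the regions, so they too are a description. Without G200 as a wash, 79 regions remained in 5 or more washes without FT, since a region then has 6 washes to be called in.

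The 8 regions of this class that were named were called in all 7 washes. The one with the highest mean strength was chr22:39928710-39929125, with 35 reads in G20, 24 in G200, 20 in both G300 and G1000, 15 in G500 and 13 in both G100 and G700. At chr6:26735165-26735949, the reads were 23 in G300, 19 in G20, 18 in G700, 16 in both G100 and G500, 15 in G200 and 11 in G1000. Scaled to FT they ran from 19.6 (G1000) to 38.4 (G700), and FT had no call. At chr2:141214878-141215567, G20 had 25 reads and the other 6 washes had 9 to 15. The remaining 5 were chr3:93560186-93560798, chr13:103248665-103249339, chr12:80580385-80580952, chr11:36171210-36171823 and chr2:127065571-127066489, with 5 to 20 reads per wash.

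Regions called in all 8 libraries allow read numbers to be set side by side. The class rule used only the calls, but these come from the same reads, so a weak region is in the class only where its reads passed the threshold of each list. In the 4079 ordinary ones with a read number in every list, the median was 28 reads in FT, 26 in G300, 25 in G20, 19 in G200, 17 in G100, 15 in both G500 and G1000 and 13 in G700. Divided by the background per kb, the mean reads per region came to 13 in FT, 15.7 in G700, 16.7 in G1000, 17.1 in G300, 17.4 in G500, 17.8 in G20, 17.8 in G100 and 27.3 in G200. FT was the lowest of the 8, at 0.830 times the lowest wash, and at 0.795 times when 8434 ordinary regions of FT and 5 or more washes were used. FT thus combined the most called regions with the lowest reads at shared regions relative to its background, which may stand for its depth. With 1 library against 7, a permutation over libraries cannot give a p below 0.125, so no test is given.

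**Figure D3:**
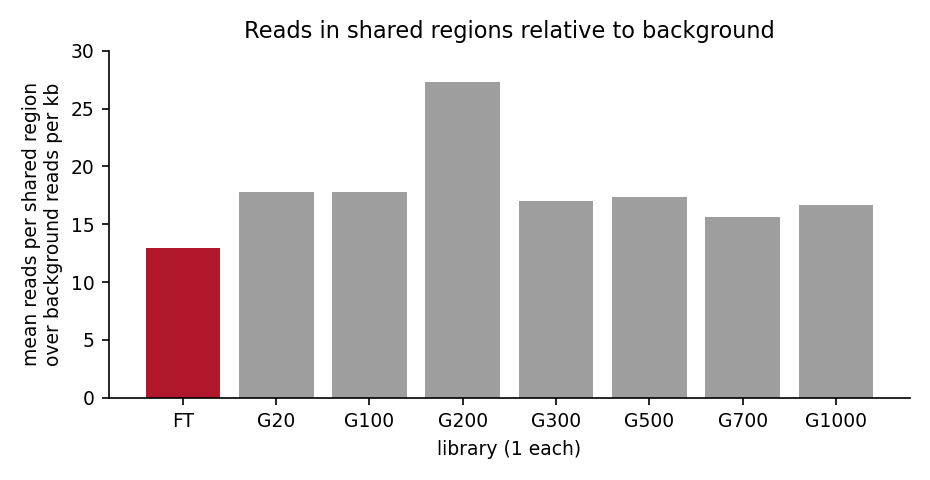
Mean summit reads per ordinary region called in all 8 libraries, divided by the background reads per kb of the same library (y axis, bars from 0), for the 8 libraries (x axis, 1 each). FT is at 13, the washes from 15.7 to 17.8, and G200 apart from them at 27.3.

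Weak and strong shared regions did not take the same share of FT reads. Ordinary regions were split into 4 bins by their G300 reads (7 to 19, 20 to 26, 27 to 35 and 36 to 245), and FT reads were set against those of the other 6 washes. A ratio of 1 is the share over all ordinary regions. The FT ratio was 1.10 (95% interval 1.08 to 1.12) in the weakest bin, 1.06 (1.04 to 1.07) in the second, 1.01 (0.993 to 1.02) in the third and 0.923 (0.913 to 0.932) in the strongest. The ratio of weakest to strongest was 1.19 in FT, against 1.07 in G700, 0.988 in G1000, 0.971 in G500, 0.966 in G100, 0.911 in G200 and 0.910 in G20. The FT value was the farthest from 1 of the 7 libraries, followed by G20 and G200 in the other direction. How the threshold of each list acts on the weakest bin was not tested. Ranked by G20 in place of G300 it was 1.18, and with each wash left out in turn it was 1.17 to 1.21. The intervals cover counting error only, and the regions are not replicates.

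**Figure D4:**
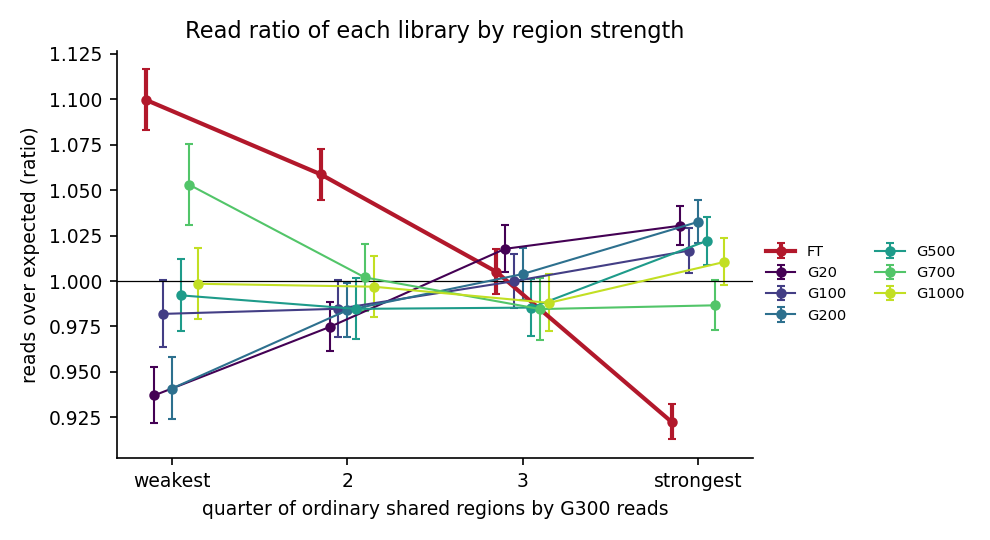
Reads over the expected number (y axis, ratio, with 95% intervals for counting error) in 4 bins of ordinary shared regions ranked by G300 reads (x axis), for FT and 6 washes. FT goes from 1.10 in the weakest bin to 0.923 in the strongest, and the washes stay between 0.937 and 1.05.

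FT peaks were also wider at the same places. In shared regions the median width was 803 bp in FT, 719 in G300, 683 in G20, 654 in G200, 615 in G100, 563 in G500, 552 in G1000 and 488 in G700. The per-region FT width over that of the wash had a median of 1.10 for G300, 1.14 for G20, 1.20 for G200, 1.26 for G100, 1.37 for G500, 1.40 for G1000 and 1.56 for G700. FT was wider in between 66.8% (G300) and 93.9% (G700) of regions. Where FT and the wash had the same number of summit reads, the median ratio was 1.10 for G300 (198 regions), 1.14 for G20 (199), 1.15 for G200 (109), 1.27 for G100 (81) and 1.27 for G1000 (47). It was 1.42 for both G500 (47) and G700 (24). FT was thus wider than each wash also at equal reads. A peak's called width depends on the background of its list too, and that part was not tested.

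FT summits lay somewhat farther from those of the washes than these lay from each other. The median distance between the FT summit and that of a wash was 73 to 85 bp, against 62 to 81 bp between 2 washes. For 5 of the washes (G20, G100, G200, G500 and G1000) FT was farther away than any other wash was, for example 85 bp against at most 81 bp for G500. For G700 it was 81 bp against at most 81 bp, and for G300 73 bp against at most 74 bp.

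Each shared region was then tested on its own. FT reads were set against the summed reads of the 7 washes with an exact binomial test (two-sided, Benjamini-Hochberg over 4199 regions), with the ordinary regions giving the expected FT share of 17.1%. At an adjusted p under 0.05, 52 regions (1.24%) were called, 36 with more FT reads (0.857%) and 16 with fewer (0.381%). An unadjusted p under 0.05 was seen in 472. FT lay above all 7 washes in 660 regions (15.7%) and below all 7 in 486 (11.6%). Such shares were not particular to FT, since G200 was the highest library in 16.1% and the lowest in 22.6% of regions, and G700 in 15.8% and 13.4%. Of the 36 called higher, 28 lay above all 7 washes, and of the 16 called lower, 16 lay below all 7. In ordinary shared regions, FT reads had a standard deviation 1.26 times that of counting error around the expected share. It was 1.54 times in G200 and 0.870 to 0.983 times in the other washes. With the test widened by the FT spread, 12 higher and 4 lower regions were left.

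The scale decides the balance of the calls. If the background per kb is taken as the depth of a library, the median shared region is lower in FT by a log2 of −0.47, and 3 regions were then called higher and 850 lower. Of the 36 regions higher in FT, 27 kept a ratio above 1 on that scale and 3 were still called. All 16 lower regions kept both direction and call, which was fixed in advance because that scale lowers every FT ratio. What follows is relative to the ordinary shared regions unless stated.

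The region with the highest FT ratio lay on chrUn_gl000220, the hg19 scaffold that carries copies of the ribosomal RNA genes. These genes are repeated in tandem and read by RNA polymerase I. At chrUn_gl000220:133882-135325 FT had 287 reads, and the washes scaled to FT had 140 (G20), 98.6 (G100), 181 (G200), 107 (G300), 99.8 (G500), 89.7 (G700) and 116 (G1000). FT lay above all 7, at a ratio of 2.36 (95% interval 2.04 to 2.72, adjusted p = 5.75e-26 by the exact binomial test). On the background scale it was still 1.69. It was called with each wash left out in turn and with the widened spread.

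Of the 10 shared regions on this scaffold, 7 were called higher in FT, and their reads together gave an FT ratio of 1.38 (1.34 to 1.43). For the other 6 called, G200 lay above FT and the remaining washes below it. At chrUn_gl000220:116972-118393, FT had 836 reads and the scaled washes 545 (G20), 438 (G100), 1551 (G200), 358 (G300), 425 (G500), 382 (G700) and 397 (G1000). FT was second to G200. Over the scaffold G200 had a ratio of 2.63, and the other washes 0.583 to 0.795. With G200 left out, FT was at 1.81 (1.74 to 1.87) and the washes at 0.706 to 0.985, and all 7 were still called. The call at chrUn_gl000220:153190-154989 (1.28) was lost without G300. The scaffold holds repeated copies, so its regions share sequence.

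**Figure D5:**
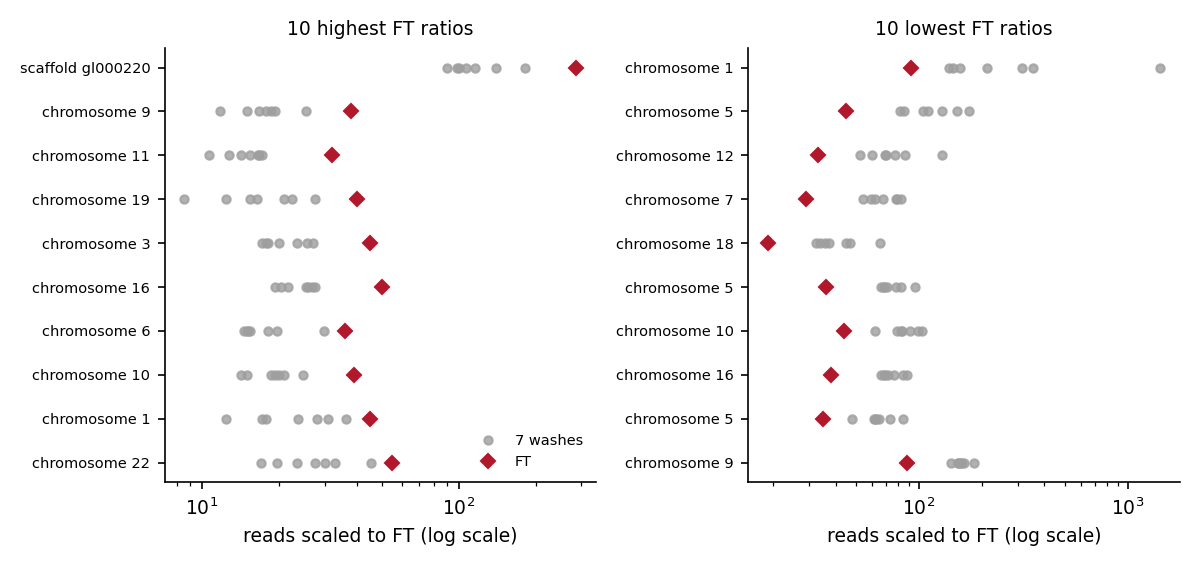
Reads scaled to FT (x axis, log scale) for FT and the 7 washes at the 10 regions called with the highest and the 10 called with the lowest FT ratio, by chromosome or scaffold (y axis). In each of these 20 regions the FT point lies outside the range of the 7 washes.

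The 72 shared regions kept out of the ordinary set by the 1 Mb rule had an FT ratio of 1.13 (1.11 to 1.16). Of them, 8 were called higher in FT and 0 lower. The 8 include both chromosome 21 regions named below. Whether each peak-free stretch is a centromere gap was not tested. The washes ranged there from 0.689 in G200 to 1.15 in G700, so FT was within the range of the washes. Without G200 the FT ratio was 1.08 (1.06 to 1.10), and 4 of the 8 calls were kept, those on chromosome 21 included. At chr7:61968664-61969772, FT had 1055 reads and the scaled washes 545 to 1080, a ratio of 1.21 with an adjusted p of 1.88e-05 by the exact binomial test. FT did not lie above every wash there, and on the background scale this region was called in the other direction. A region on the short arm of chromosome 21 had a higher ratio. At chr21:9825598-9826406, FT had 199 reads and the scaled washes 71.2 to 177, a ratio of 1.82 (adjusted p = 4.13e-09, exact binomial test), and it stayed called on the background scale. Its neighbour chr21:9826754-9827559 was called at 1.25. This call was kept without G200 but was lost with any of the other 6 washes left out, and with the widened spread. On the background scale its ratio was 0.898. FT (308 reads) lay there below G200 (650 scaled) and above the other 6 washes. Such an order was also seen on chrUn_gl000220, and whether these places share reads was not tested. The remaining 31 scaffold regions had an FT ratio of 1.14 (1.09 to 1.18), within the range of the washes, from 0.730 (G200) to 1.16 (G500).

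Higher FT reads at ordinary sites were called in 20 regions, each with FT above all 7 washes, at ratios of 1.38 to 2.2. Of these, 12 stayed called without G20, 14 without G200 and 17 to 19 with any other wash left out. When the p-values were adjusted over the ordinary regions alone, 13 of the 20 stayed called. The strongest by reads was chr3:73159863-73160332, where FT had 408 reads, G20 261, G100 133, G200 247, G300 245, G500 133, G700 120 and G1000 131 before scaling. Its ratio was 1.56 (1.39 to 1.75, adjusted p = 4.41e-11, exact binomial test), and it stayed called with the widened spread. It was also the ordinary region with the highest FT −log10 q, at 433. The 4th of these by FT −log10 q, chr18:107889-109327, was called as well, at 1.38. Those at chr9:69710737-69711340, chr9:66970982-66971490, chr9:67320303-67320958 and chr4:68265423-68265995 were not called, with ratios of 1.17, 1.16, 1.25 and 0.973.

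The ordinary regions with the highest ratios had few reads. At chr9:131872780-131873890 FT had 38 reads and the scaled washes 11.7 to 25.4, a ratio of 2.2 (1.46 to 3.26, adjusted p = 0.0181, exact binomial test). This call was lost without G20. At chr19:1479188-1479644, with 40 FT reads against 8.54 to 27.5, the ratio was 2.14, and at chr3:50387958-50388835, with 45 against 17.1 to 27, it was 2.10. At chr16:30345674-30347179, 50 FT reads stood against 19.2 to 27.5, a ratio of 2.09 with an adjusted p of 0.00514 by the exact binomial test. At chr22:24316530-24317373 the ratio was 1.94. These 4 were called with each wash left out in turn.

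The calls at chr11:113184908-113185754 (2.19), chr6:150325985-150326952 (2.08), chr10:43931841-43932769 (2.06) and chr1:202857697-202858623 (1.95) each depended on 1 or more washes. The first was lost without G20 or G500, the second without G20, G100, G200 or G300, the third without G20 and the fourth without G20 or G200. None of the 9 ordinary regions with ratios of 1.94 to 2.2 was called with the widened spread or on the background scale.

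The lowest FT ratio was at chr1:566064-566755, in a stretch of chromosome 1 that is a nuclear copy of mitochondrial DNA. FT had 92 reads there, and the scaled washes had 158 (G20), 146 (G100), 1432 (G200), 140 (G300), 312 (G500), 211 (G700) and 351 (G1000). FT was below all 7, at a ratio of 0.237 (0.190 to 0.292, adjusted p = 1.81e-60, exact binomial test). G200 held most of the wash reads. Without it the ratio was 0.449 (adjusted p = 3.56e-13, exact binomial test), which is no longer the lowest. The lowest called ratios were then 0.364 at chr5:10058-11759, 0.409 at chr12:133841529-133841891 and 0.426 at chr7:137686143-137687490. Reads from mitochondria can match such a copy, and how they were filtered is not given in the sources used here.

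FT reads were low at 3 shared regions that lie at the assembled tips of hg19 chromosomes, where DNA runs into telomeric repeats that a dedicated protein complex covers. Their reads together gave an FT ratio of 0.461 (0.385 to 0.549), against 0.781 (G200) to 1.88 (G500) in the washes. Without G200 it was 0.440 (0.367 to 0.525). At chr5:10058-11759 FT had 45 reads and the scaled washes 81.1 to 174, a ratio of 0.384 (0.277 to 0.521, adjusted p = 1.63e-09, exact binomial test). At chr12:133841529-133841891 FT had 33 reads against 52.2 to 129, a ratio of 0.432. At chrX:155260025-155260404 it had 62 against 79.98 to 176, a ratio of 0.564. FT was below all 7 washes at each of the 3, and each was called lower. With the widened spread, those on chromosomes 5 and 12 stayed called. Chromosome ends share repeats, so these regions may share reads. The 3 were set apart by their position after their values were seen.

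A further 4 shared regions were within 20 kb of the last called peak of a chromosome but lie farther inside its end in hg19. Their FT ratio was 0.863 (0.719 to 1.03), against 0.902 (G20) to 1.21 (G500) in the washes. At chr11:134721598-134722051 the ratio was 0.556, and its lower call was lost without G200 or G500. The other 3 were not called, at 0.964 for chr10:135500444-135501193, 0.981 for chr6:170893371-170894193 and 1.32 for chr19:59084124-59085216.

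Lower FT reads at ordinary sites were called in 12 regions, the chromosome 1 stretch included. At chr7:137686143-137687490 FT had 29 reads and the scaled washes 53.9 to 81.9, a ratio of 0.432 (adjusted p = 0.000495, exact binomial test). At chr9:82185954-82186975 FT had 88 reads, and the 7 washes lay close together at 143 to 184. Its ratio was 0.553 (0.439 to 0.690, adjusted p = 7.10e-06, exact binomial test), and it stayed called with the widened spread. FT alone stood apart at this site. Further regions were chr5:108745330-108746533 at 0.489, chr10:134148586-134149613 at 0.499 and chr16:84047526-84048236 at 0.509. At chr18:67505785-67506775 (0.455) the call was lost without G20 or G500, and at chr5:159546269-159547123 (0.547) without G1000.

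Ordinary shared regions also differed by chromosome in their FT reads. The highest ratio was on chromosome 22, at 1.21 (1.16 to 1.27) over 64 regions, 52 of them above 1. Washes on this chromosome ranged from 0.881 (G100) to 1.15 (G200), so FT was the highest of the 8, and without G200 its ratio was 1.25. Chromosome 20 followed at 1.11 (1.05 to 1.18), then chromosomes 17 and 19, both at 1.07, and chromosome 16 at 1.06. On these 4 G200 was above FT, for example at 1.29 on chromosome 17 and 1.27 on chromosome 19. Without G200, FT was at 1.14 on chromosome 20, 1.12 on 17, 1.11 on 19 and 1.08 on 16, each above the other 6 washes. The lowest FT ratios were 0.917 (0.879 to 0.956) on chromosome 13, 0.926 on chromosome 4, 0.935 on chromosome 5 and 0.944 on chromosome 7. On chromosome 4 G200 was lower still, at 0.918, and on chromosome 7 slightly so, at 0.9436 against 0.9445 in FT. Without G200, FT was the lowest of the 7 libraries on each of these 4. The gene-poor chromosome 18 was at 0.978 (0.918 to 1.04). This order was looked at after the values were seen, and base composition, which differs between these chromosomes, was not tested.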

How the data were processed

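Per the submitters' processing notes, reads were handled with Bowtie2 2.2.6, MACS2 2.2.1 and HOMER. Chromosome names match hg19. No source used here gives the read filters or peak settings. Each of the 8 peak lists deposited by the authors, called per library, holds a score (not used), a fold enrichment ratio, and −log10 p and −log10 q values. A whole-number pileup up to 3000, called reads here, was solved from each deposited fold and −log10 p, within 0.001. These may be fragments where reads were paired. The background is the lowest expected pileup of a list. Peaks sharing 1 bp were merged. The exact binomial test is described with its result, and intervals are 95% exact binomial, covering counting error only. Python 3.11.15, pandas 2.3.3, NumPy 2.4.6, SciPy 1.17.1 and matplotlib 3.10.9 were used. The test was also run on simulated reads that varied by counting error alone. Its behaviour under the wider spread of FT was therefore not checked.

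The members, lists and rules were chosen with earlier results of these data known. Named regions are the 8 strongest of FT and no wash, the 6 strongest of FT and 1 to 6 washes, the 6 strongest ordinary regions of all 8, the 10 most extreme called ratios in each direction and the 8 of most washes without FT. All others were chosen after their values were seen. Genes, cell type markers, sequences and motifs were planned but not analysed here, for want of an hg19 reference, so the 293T label was not checked against markers. Alternatives were equal list length, a −log10 q of at least 3, summit windows of 100 bp, each wash left out, another scale, the ordinary regions alone and a widened spread.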

Additional observations from a re-analysis of the deposited data

How the results depend on the processing

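Over 11 results and 75 alternatives, 58 values stayed within the limits set for a change and 17 moved. At equal list length the regions of FT and no wash were 456, those of FT and 1 to 6 washes 4613 and those of 5 or more washes without FT 702. FT, the longest list, lost the most peaks there, and the cause of the changes was not tested. The last class was also 125 at a −log10 q of at least 3, 446 with summit windows of 100 bp, and 59 to 142 with each wash left out in turn. The first 3 classes ranged over 4435 to 5265, 13027 to 13667 and 4260 to 5252 with each wash left out. Scaled by background, 3 shared regions were higher in FT and 850 lower. With ordinary regions alone they were 13 and 10, so that 7 and 2 of the ordinary calls were lost to the changed adjustment, and with the widened spread 12 and 4. With each wash left out, they were 27 to 45 and 15 to 18, and 18 of the 36 higher and 13 of the 16 lower regions were called each time. The widened spread, the ranking by G20, the ratio over more regions and the call by p were chosen after seeing the data. By that p, 4294 FT-only regions would reach a call in some wash and 1194 in all 7. No paired analysis was possible because each fraction had 1 library. An uncalled region may hold reads below the threshold, and how depth acts on the weak classes was not tested.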
